A study of Mus musculus with 4 samples.

Results

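The 10 genes described here encode proteins of the secondary and other late granules of neutrophils, or mark late neutrophils. They are Ltf, Camp, Ngp, Lcn2, S100a8, S100a9, Mmp8, Mmp9, Chil3 and Ly6g. They are listed by name, a list made with earlier results of these data known, and all 10 were found by Ensembl identifier among the 23552 genes of the deposited table. RNA-seq was performed on c-Kit+ leukemic cells enriched from the bone marrow of moribund C57BL/6 mice with acute myeloid leukemia (AML) driven by the MLL-AF9 fusion gene. The cells of both groups carried this fusion gene and an eGFP vector. Control cells (2 libraries, replicates 3 and 4) overexpressed control-eGFP, and SUV-OE cells (2 libraries, replicates 2 and 3) overexpressed Suv39h1-eGFP, where Suv39h1 is a histone methyltransferase of lysine 9 of histone H3. Per the study's methods, serially transplanted leukemia cells had been infected with the vector and passed through irradiated recipient mice. All 4 libraries are labelled as RNA-seq batch 2. The labels do not tie a library to a mouse, so the p-values measure only the spread between these libraries, which may be technical.

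Neutrophils make their granules in waves as they mature. Primary granule proteins, such as the serine proteases, are made first, in promyelocytes. Secondary granule proteins, such as lactoferrin, follow in myelocytes and metamyelocytes, gelatinase granule proteins come later, and the cytosolic proteins S100a8 and S100a9 accumulate to very high levels along the way. MLL-AF9 leukemic cells resemble granulocyte-monocyte progenitors and usually stop before the late wave. C/EBP proteins, C/EBPε above all, are known to be required for secondary granule genes, and PU.1 is a general myeloid regulator.

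All 10 genes had more transcript in both SUV-OE libraries than in either control library. The largest difference was in Ltf, which rose 7.52-fold in mean FPKM (fragments per kilobase of exons, scaled to the library total), and the smallest was in Chil3, at 1.33-fold. This order of the libraries was found for 25.4% of all tested genes. The reverse order held for 28.4% of tested genes and for 0 of the 10. The median log2 fold change of the 10 genes was 2.01, against -0.02 for the 13736 tested genes, of which the middle 90% lay between -0.57 and 0.75. Only Ltf passed the thresholds for a differentially expressed gene (DEG), an adjusted p under 0.05 by limma (Benjamini-Hochberg) with a log2 fold change of 1 or more in either direction. Of all tested genes, 0.815% were DEGs higher in SUV-OE and 0.408% were DEGs lower in SUV-OE. In bulk RNA, a larger share of late neutrophil cells and more of this RNA per cell cannot be told apart.

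The promoter sequences of these genes are shown first, because C/EBP proteins are known to be required for secondary granule genes and PU.1 is a general myeloid regulator. The RefSeq promoter table (GRCm38.p6, the same build as mm10) held 10 promoters for 9 of the 10 genes, 2 of them for Ly6g, and none for Mmp9. The 250 bases before each start were searched on both strands for the C/EBP motif TTNNGNAA and the PU.1 core GAGGAA. The C/EBP motif was present in 9 of the 10 promoters, belonging to 8 genes, and in 36.8% of all 32851 promoters in the table. The PU.1 core was present in 6 of the 10 promoters, belonging to 5 genes, and in 23.3% of all promoters. The promoter of Camp held neither motif. Below, 60 bases around a C/EBP match are given for the only DEG (Ltf), the most abundant secondary granule gene (Ngp), the most abundant gene of the 10 (S100a9) and the one with the smallest difference (Chil3). Capitals mark 1 match per sequence, the Chil3 sequence holds 2 further matches left in lower case (29 and 19 bases before the start), each sequence is written 5′ to 3′ on the strand of its gene, and no match is known here to be a bound site.
Ltf, chr9:111019191-111019250, plus strand: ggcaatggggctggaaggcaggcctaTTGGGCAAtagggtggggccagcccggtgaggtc
Ngp, chr9:110419644-110419703, plus strand: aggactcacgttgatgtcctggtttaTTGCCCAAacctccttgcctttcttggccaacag
S100a9, chr3:90695818-90695877, minus strand: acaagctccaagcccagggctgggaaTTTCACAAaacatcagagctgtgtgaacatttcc
Chil3, chr3:106167584-106167643, minus strand: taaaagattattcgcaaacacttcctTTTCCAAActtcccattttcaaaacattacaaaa
The matches lay 67, 130, 122 and 45 bases before the start in Ltf, Ngp, S100a9 and Chil3. Thus a C/EBP match was present upstream both of Ltf, with the largest log2 fold change of the 10, and of Chil3, with the smallest.

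Before the genes are taken in turn, the libraries are described. Read counts per library, recovered from the steps between FPKM values, were 23054754 and 20604474 in controls against 19616275 and 20358736 in SUV-OE. The FPKM were scaled to smaller totals than these, 16873768 to 19453056, so that 3 reads on 1 kb of exons correspond to 0.154 to 0.178 FPKM, a limit for counting error alone. The targeted gene, Suv39h1, had an FPKM of 12.4 in both control libraries and of 75.3 and 81.2 in SUV-OE, a log2 fold change of 2.56 (SE 0.11, limma adjusted p = 0.00866). Kit, whose product is the surface marker used for enrichment, was detected in all 4 libraries, at 20.4 and 19.2 in controls against 28.6 and 25.4 in SUV-OE. The summed FPKM of 7 progenitor markers, including Kit, Cd34 and Flt3, was 272 and 355 in controls against 333 and 368 in SUV-OE, and 0 of them were DEGs by limma or limma-voom (at an unadjusted p under 0.05 by limma, 1 higher and 1 lower). Its most abundant gene, Fcgr3, had an FPKM of 117 and 176 in controls against 161 and 190 in SUV-OE.

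The secondary granule matrix genes Ltf, Camp, Ngp and Lcn2 come first. Ltf (ENSMUSG00000032496, chromosome 9, 111019271 to 111042767 in mm10, plus strand) encodes lactoferrin, an iron-binding antimicrobial protein that is used to define secondary granules. Its FPKM was 19.9 and 40.3 in controls against 212 and 241 in SUV-OE. The lower SUV-OE library was 5.26-fold above the higher control library, the widest gap among the 10 genes. The log2 fold change on the log2(FPKM + 1) scale was 2.95 (SE 0.34, limma adjusted p = 0.0434). When any 1 of the 4 libraries was left out Ltf missed the adjusted p threshold, with log2 fold changes of 2.46 to 3.44. With a pseudocount of 0.1 and with no filter on low values it was no DEG either.

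Ngp (ENSMUSG00000032484, chromosome 9, 110419747 to 110423012, plus strand) encodes a cystatin-like protein of neutrophil granules. It was the most abundant of the granule matrix genes, at an FPKM of 166 and 302 in controls against 1010.3 and 1087 in SUV-OE. The SUV-OE libraries lay close together and at least 3.35-fold above control, with a log2 fold change of 2.22 (SE 0.34, limma adjusted p = 0.0653).

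Camp (ENSMUSG00000038357, chromosome 9, 109847379 to 109849617, minus strand) encodes the precursor of the antimicrobial peptide cathelicidin. Its FPKM was 80.2 and 192 in controls against 539 and 630 in SUV-OE. Control replicate 4 was 2.40-fold above control replicate 3, but still 2.80-fold below the lower SUV-OE library, and the log2 fold change was 2.22 (SE 0.44, limma adjusted p = 0.0976).

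Lcn2 (ENSMUSG00000026822, chromosome 2, 32384633 to 32388252, minus strand) encodes lipocalin 2, which binds bacterial siderophores and so withholds iron. Its FPKM was 26.3 and 56.1 in controls against 124 and 152 in SUV-OE. The groups did not overlap, and the control libraries differed 2.14-fold, which gave a log2 fold change of 1.81 (SE 0.38, limma adjusted p = 0.103).

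**Figure D1:**
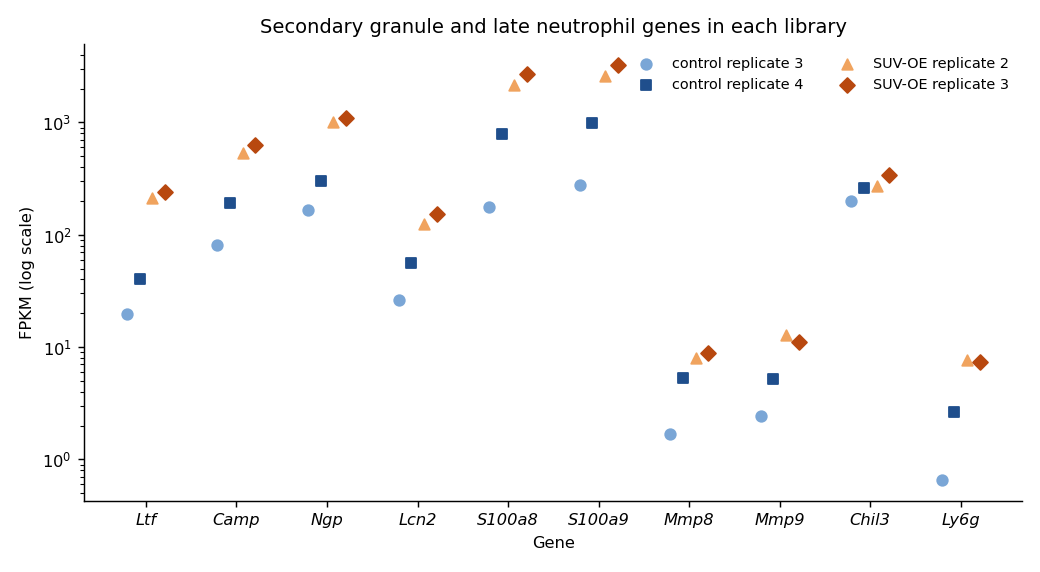
FPKM of the 10 genes in each library, on a log axis, with 1 point per library (circles and squares for control replicates 3 and 4, triangles and diamonds for SUV-OE replicates 2 and 3). In every gene both SUV-OE points lie above both control points, by a wide gap in Ltf (40.3 against 212) and a narrow one in Chil3 (263 against 273), and control replicate 4 lies above control replicate 3.

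S100a8 and S100a9 encode the subunits of calprotectin, a calcium- and zinc-binding complex that fills the cytosol of neutrophils. They were the most abundant of the 10 genes in each library except control replicate 3, where Chil3 lay between S100a9 and S100a8. S100a8 (ENSMUSG00000056054, chromosome 3, 90668978 to 90670035, plus strand) had an FPKM of 178 and 791 in controls against 2134 and 2684 in SUV-OE. S100a9 (ENSMUSG00000056071, chromosome 3, 90692632 to 90695721, minus strand) had an FPKM of 275 and 979 in controls against 2589 and 3262 in SUV-OE. Both were low in control replicate 3, intermediate in control replicate 4 and high in both SUV-OE libraries. Ranked by FPKM among all 23552 genes, S100a9 was 171st and 61st in the control libraries and 5th and 4th in the SUV-OE libraries. S100a8 moved from 277th and 82nd to 7th and 8th, Ngp from 298th and 175th to 41st and 49th, and Ltf from 3311th and 1584th to 193rd and 188th. Chil3 moved least, from 239th and 191st to 149th and 137th.

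The log2 fold change was 2.67 for S100a8 (SE 0.74, limma adjusted p = 0.157) and 2.48 for S100a9 (SE 0.65, limma adjusted p = 0.148). These standard errors were the largest of the 10 genes, and control replicate 4 exceeded control replicate 3 by 4.45-fold for S100a8 and 3.56-fold for S100a9. Without control replicate 3 the log2 fold change was 1.60 for S100a8 and 1.57 for S100a9. Without control replicate 4 it was 3.74 and 3.40. The ratio of S100a8 to S100a9 FPKM was 0.646 in control replicate 3 and between 0.809 and 0.824 in the other 3 libraries. The genes lie 22.597 kb apart.

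Mmp8 and Mmp9 encode matrix metalloproteinases, the neutrophil collagenase of the secondary granules and gelatinase B of the gelatinase granules. Both were expressed at low levels. Mmp8 (ENSMUSG00000005800, chromosome 9, 7558456 to 7568485, plus strand) had an FPKM of 1.68 and 5.34 in controls against 7.93 and 8.78 in SUV-OE. It had a log2 fold change of 1.18 (SE 0.42, limma adjusted p = 0.216), which was 0.56 without control replicate 3 and 1.80 without control replicate 4. Mmp9 (ENSMUSG00000017737, chromosome 2, 164940780 to 164955850, plus strand) had an FPKM of 2.43 and 5.21 in controls against 12.9 and 11.1 in SUV-OE, and a log2 fold change of 1.49 (SE 0.30, limma adjusted p = 0.101). Mmp8 was thus closer to the control range than Mmp9, with the lower SUV-OE library 1.48-fold above the higher control library for Mmp8 and 2.13-fold for Mmp9. The read counts behind these values were 80 to 383 for Mmp8 and 167 to 810 for Mmp9.

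Chil3 and Ly6g are used to mark late neutrophils. Chil3 (ENSMUSG00000040809, chromosome 3, 106147554 to 106167564, minus strand) encodes Ym1, a chitinase-like protein without enzyme activity that is made by neutrophils and also by alternatively activated macrophages. Its FPKM was 200.3 and 263 in controls against 273 and 342 in SUV-OE. The gap between the groups was 1.04-fold, less than the difference between the libraries within either group, and the log2 fold change was 0.41 (SE 0.23, limma adjusted p = 0.374). It was 0.22 without control replicate 3 and 0.25 without SUV-OE replicate 3. Chil3 has a near-identical copy, Chil4, for which the table holds no row, so how reads of the copies were assigned is uncertain.

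Ly6g (ENSMUSG00000022582, chromosome 15, 75155240 to 75159126, plus strand) encodes the surface protein that antibodies use to identify mouse neutrophils. Its FPKM was 0.655 and 2.64 in controls against 7.72 and 7.40 in SUV-OE, from 12, 42, 129 and 124 reads. It was the least abundant of the 10 genes in every library, and nearly equal in the SUV-OE libraries. The log2 fold change was 1.80 (SE 0.39, limma adjusted p = 0.110), a scale that understates the 4.59-fold difference in mean FPKM because of the pseudocount. Without control replicate 3 the log2 fold change was 1.23, and without control replicate 4 it was 2.37. Ly6g belongs to a family of similar genes, so reads from near copies could not be separated from its own here.

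**Figure D2:**
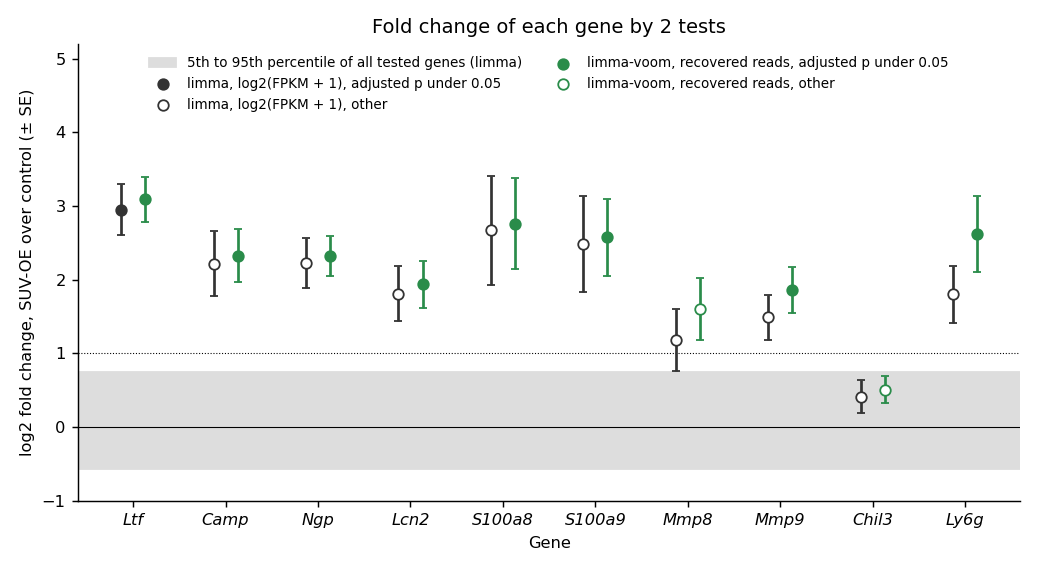
Log2 fold change of SUV-OE over control for each gene, with bars of 1 SE, by limma on log2(FPKM + 1) (dark) and by limma-voom on recovered reads (green); filled points have an adjusted p under 0.05, the dotted line is a log2 fold change of 1 and the grey band spans the 5th to 95th percentile of tested genes, -0.57 to 0.75. The band was computed from the limma values only, and none was computed for limma-voom. Of the 10 genes, 9 lie above this limma band in both tests, and Chil3 lies inside it. The filled points number 1 for limma and 8 for limma-voom.

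By limma, 9 of the 10 genes had a log2 fold change of at least 1, against 2.95% of all tested genes, and the same 9 had an unadjusted p under 0.05. Chil3 was the exception in both. Among all tested genes, 10.3% had an unadjusted p under 0.05 and were higher in SUV-OE. With limma-voom on the recovered reads, 8 of the 10 genes were DEGs, all but Mmp8 and Chil3, where 4.41% of 14272 tested genes were DEGs higher in SUV-OE. The limma-voom log2 fold changes of these 8 genes ran from 1.86 in Mmp9 (SE 0.31, limma-voom adjusted p = 0.0172) to 3.09 in Ltf (SE 0.30, limma-voom adjusted p = 0.00335). For Mmp8 the limma-voom value was 1.60 (SE 0.42, adjusted p = 0.0701) and for Chil3 0.51 (SE 0.18, adjusted p = 0.150). The number of DEGs among the 10 genes thus depended on the test, while the log2 fold change of each of the 10 genes was also positive with quantile normalization, with median-of-ratios scaling and with limma-voom.

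The control libraries differed from each other in these genes more than the SUV-OE libraries did. Control replicate 4 was above control replicate 3 in 10 of 10 genes, by 1.31-fold in Chil3 to 4.45-fold in S100a8 (median 2.27). In 8 of the 10 genes this ratio exceeded 2. Across all tested genes, 49.9% were higher in control replicate 4, and the middle 90% of ratios lay between 0.621 and 2.18. Between the SUV-OE libraries, the ratio of replicate 3 to replicate 2 ran from 0.860 in Mmp9 to 1.26 in S100a9 (median 1.15), inside the middle 90% of tested genes, 0.665 to 1.56.

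**Figure D3:**
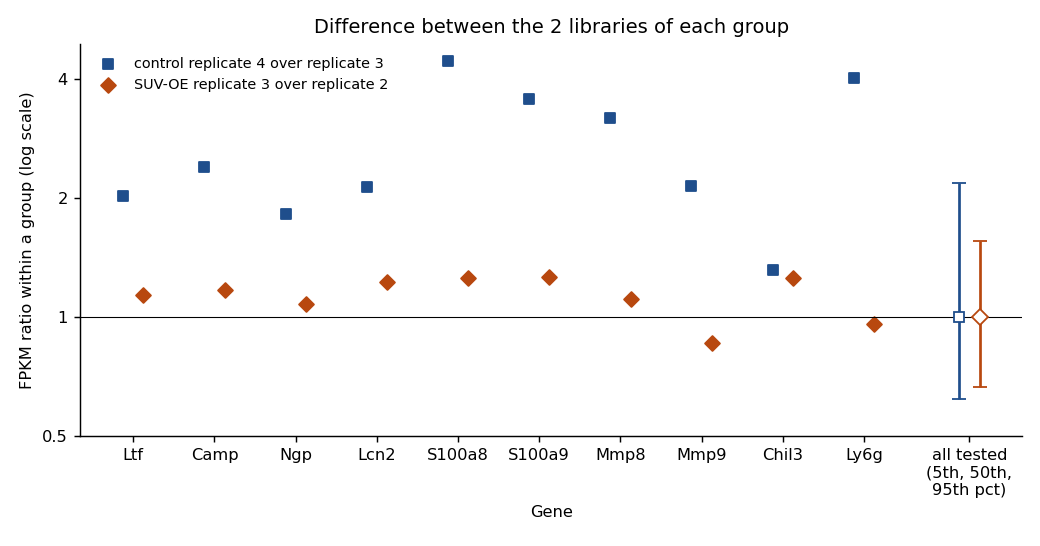
Ratio of the FPKM in the libraries of 1 group, control replicate 4 over 3 (squares) and SUV-OE replicate 3 over 2 (diamonds), on a log axis for each gene; at the right, the open symbols and bars give the median and the 5th to 95th percentile over tested genes. All 10 control ratios lie above 1, up to 4.45 in S100a8, whereas the SUV-OE ratios lie between 0.860 and 1.26.

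The order of the genes by FPKM, which is per length and so comparable between genes, was nearly the same in both groups. In control it ran S100a9, S100a8, Ngp, Chil3, Camp, Lcn2, Ltf, Mmp9, Mmp8, Ly6g. The ranges of the control libraries overlapped for S100a9 and S100a8, S100a8 and Ngp, Ngp and Chil3, Lcn2 and Ltf, Mmp9 and Mmp8, and Mmp8 and Ly6g. Within each control library, however, S100a9 was above S100a8, S100a8 above Ngp, Lcn2 above Ltf and Mmp8 above Ly6g. Only Ngp and Chil3, and Mmp9 and Mmp8, changed places between the control libraries. In SUV-OE, S100a9 was at 2925 ± 476 and S100a8 at 2409 ± 389 (mean ± SD of FPKM, n = 2), and only these neighbours overlapped. Within each SUV-OE library S100a9 was above S100a8. Camp passed Chil3, at 584 ± 64.4 against 308 ± 49.1, and Ltf passed Lcn2, at 226 ± 20.6 against 138 ± 19.7.

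The summed FPKM of the 10 genes was 949.9 and 2637 in controls against 6909 and 8426 in SUV-OE. In reads, the 10 genes took 0.0850% and 0.190% of the recovered reads in controls against 0.547% and 0.631% in SUV-OE (95% Wilson intervals 0.0839 to 0.0862%, 0.188 to 0.192%, 0.544 to 0.551% and 0.628 to 0.635%, for counting error only). The difference between the control libraries was far wider than these intervals. The mixture also differed. S100a8 and S100a9 together made up 47.7% of the summed FPKM in control replicate 3, 67.1% in control replicate 4, and 68.4% and 70.6% in SUV-OE. Chil3 made up 21.1% and 9.97% in controls against 3.95% and 4.06% in SUV-OE. Relative to Ngp, Ltf stood at 0.120 and 0.133 in control and at 0.210 and 0.222 in SUV-OE, whereas the ratio of Camp to Ngp overlapped between the groups, at 0.485 and 0.637 in controls against 0.533 and 0.579 in SUV-OE.

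The other genes of the neutrophil program were taken as fixed lists. Of 18 other granule genes, 3 rose as DEGs and 1 fell, with 11 higher and 7 lower, and the median of the list was 0.22 (-0.049 without control replicate 3). At an unadjusted p under 0.05, 7 were higher and 2 lower, and by limma-voom 6 were DEGs higher and 1 lower, with Lyz2, Adam8 and Mmp25 added. The DEGs that rose were Fcnb, Cybb and Cd177. Fcnb, which encodes the granule lectin ficolin B, had an FPKM of 5.80 and 10.1 in controls against 52.1 and 57.9 in SUV-OE, a log2 fold change of 2.68 (SE 0.26, limma adjusted p = 0.0309). Cybb, the catalytic subunit of the NADPH oxidase, had 4.43 and 6.75 in controls against 32.1 and 28.6 in SUV-OE, a log2 fold change of 2.27 (SE 0.20, limma adjusted p = 0.0280). Cd177, a surface protein held in secondary granules, had 21.1 and 22.0 in controls against 63.3 and 61.5 in SUV-OE, a log2 fold change of 1.49 (SE 0.11, limma adjusted p = 0.0220).

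The DEG that fell was Olfm4, itself a protein of a subset of secondary granules. Its FPKM was 38.6 and 47.0 in controls against 17.5 and 16.9 in SUV-OE, a log2 fold change of -1.26 (SE 0.14, limma adjusted p = 0.0405). The most abundant genes of the list were not DEGs by limma, and they differed in direction. Lyz2, lysozyme, the most abundant in both SUV-OE libraries, had 101 and 177 in controls against 570 and 703 in SUV-OE (limma adjusted p = 0.0596). Hp, haptoglobin, had 668 and 693 in controls against 415 and 507 in SUV-OE, and Cyba, the smaller oxidase subunit, had 547 and 546 against 490 and 506. Mmp25, a metalloproteinase of neutrophils, had 0.305 and 0.720 in controls against 2.00 and 2.23 in SUV-OE, a log2 fold change of 1.06 (SE 0.20, limma adjusted p = 0.0910). The direction of the late granule genes was therefore not shared by every granule gene. As with Ltf, no DEG named here passed both thresholds when any 1 library was left out, since 0 of all tested genes were then DEGs.

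**Figure D4:**
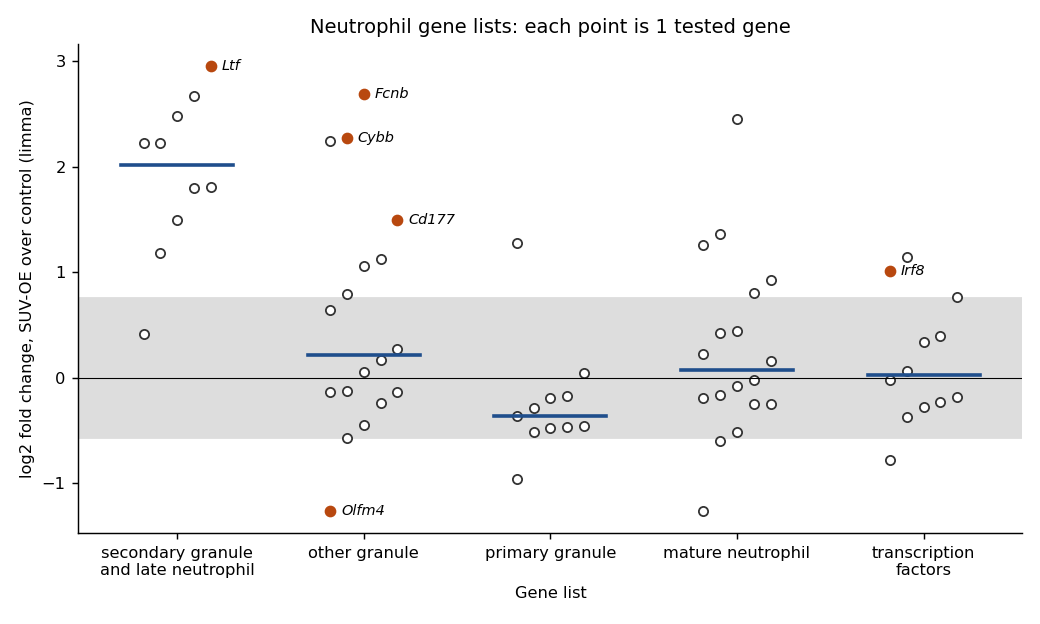
Log2 fold change by limma, SUV-OE over control, of each tested gene in 5 lists; each point is 1 gene, filled and named points are DEGs, the bar is the list's median and the grey band spans the 5th to 95th percentile of tested genes. The medians are 2.01 for the 10 late granule and late neutrophil genes, 0.22 for other granule genes, -0.36 for primary granule genes, 0.07 for mature neutrophil genes and 0.02 for transcription factors.

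Primary granule genes, made in the earlier wave, had a median log2 fold change of -0.36 (-0.23 without control replicate 4 and -0.54 without SUV-OE replicate 3), with 0 of 11 tested genes a DEG in limma, 2 higher and 9 lower (at an unadjusted p under 0.05, 1 higher and 2 lower). Ctsg, cathepsin G, had an FPKM of 2236 and 2787 in controls against 1226 and 1353 in SUV-OE, a log2 fold change of -0.95 (SE 0.32, limma adjusted p = 0.198). By limma-voom it was -0.86 (SE 0.17, limma-voom adjusted p = 0.0298), short of the fold change threshold. Elane, neutrophil elastase, had 1548 and 1527 in controls against 1385 and 1825 in SUV-OE. Ctsc, the protease that activates these enzymes, had 1.35 and 2.86 in controls against 5.86 and 6.73 in SUV-OE, and was the only DEG of this list by limma-voom (adjusted p = 0.0180). The summed FPKM of the 11 genes was 6359 and 7486 in controls against 4631 and 5593 in SUV-OE. In both control libraries it exceeded that of the 10 late genes (949.9 and 2637) by a wide margin, and in both SUV-OE libraries the late genes had the higher sum. That higher sum rested on S100a8 and S100a9, which made up 68.4% and 70.6% of it. Without these cytosolic proteins' genes, the late sum was below the primary granule sum in SUV-OE too.

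Among 18 tested mature neutrophil genes, 9 were higher and 9 lower, and the median was 0.07 (-0.13 without control replicate 3). By limma 0 of them were DEGs (at an unadjusted p under 0.05, 4 higher and 3 lower), and by limma-voom Cxcr2 and Wfdc21 were. Il1b, Stfa2 and Asprv1 were below the filter. Wfdc21 had an FPKM of 10.1 and 34.4 in controls against 96.0 and 119 in SUV-OE, a log2 fold change of 2.45 (SE 0.56, limma adjusted p = 0.122). Retnlg, a resistin-like gene of mature neutrophils, had 4.73 and 20.2 in controls against 27.1 and 27.7 in SUV-OE. Stfa1, a stefin with near-identical copies, had 374 and 1017 in controls against 490 and 594 in SUV-OE, so the groups overlapped.

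Of 12 transcription factors of granulopoiesis, 6 were higher and 6 lower, with a median of 0.02 (-0.097 without control replicate 4), and Irf8 was the only DEG by limma. At an unadjusted p under 0.05, 3 were higher and 0 lower, and by limma-voom Irf8 and Gata1 were DEGs. Irf8, a factor of the monocyte lineage, had an FPKM of 5.22 and 5.01 in controls against 11.6 and 11.04 in SUV-OE, a log2 fold change of 1.01 (SE 0.11, limma adjusted p = 0.0405). Cebpe had 237 and 242 in controls against 177 and 193 in SUV-OE, a log2 fold change of -0.37 (SE 0.15, limma adjusted p = 0.262). Myb, a progenitor factor, had 181 and 202 in controls against 201 and 198 in SUV-OE. Gata1, an erythroid and eosinophil factor, had 0.485 and 0.899 in controls against 2.89 and 2.56 in SUV-OE (limma adjusted p = 0.0735).

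Receptors and inhibitors of the late granule proteins were listed separately. Of 7 tested, 1 fell as a DEG, 2 were higher, 5 were lower and the median was -0.03. The DEG was Slc22a17, which encodes a receptor for lipocalin 2, at 13.2 and 10.7 in controls against 3.51 and 2.48 in SUV-OE, a log2 fold change of -1.70 (SE 0.19, limma adjusted p = 0.0405). Lcn2, its ligand, was higher in SUV-OE, so ligand and receptor lay in opposite directions. Bsg, basigin, a receptor that S100a9 can bind, had 147 and 159 against 143 and 153, and Cd14 had 12.0 and 6.79 against 4.37 and 9.70. Among the inhibitors of metalloproteinases only Timp2 passed the filter.

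Other genes of the S100, metalloproteinase, chitinase-like and Ly6 families were listed, but not those of the families of Ltf, Camp, Ngp and Lcn2. In these lists 0 of the tested genes were DEGs in limma, and S100a6 was the only one by limma-voom. Mmp25, also of the metalloproteinase family, was counted among the other granule genes above. Of 5 other S100 genes, 2 were higher and 3 lower, with 1 unadjusted p under 0.05, that of S100a6. S100a6, which lies near S100a8, had 1.96 and 7.15 in controls against 13.7 and 13.4 in SUV-OE (log2 fold change 1.57, SE 0.48, limma adjusted p = 0.181). S100a11 had 657 and 692 against 512 and 547, and S100a13 had 39.9 and 83.8 against 51.9 and 63.7. Of 2 further metalloproteinase genes, Mmp19 and Mmp28, both were higher by little, with log2 fold changes of 0.19 and 0.27, and 0 had an unadjusted p under 0.05. Of 3 other chitinase-like genes, Chil1, Chid1 and Chit1, 1 was higher and 2 lower, with 0 at an unadjusted p under 0.05 and log2 fold changes of -0.24, 0.10 and -0.32.

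Of 5 other Ly6 genes, 2 were higher and 3 lower. Ly6c2, a marker of monocytes and early granulocytes, had 281 and 545 in controls against 229 and 269 in SUV-OE, a log2 fold change of -0.65 (SE 0.36, limma adjusted p = 0.370), opposite in sign to Ly6g. Ly6e had a log2 fold change of -0.07. Ly6d had 0 and 0.159 in controls against 0.606 and 1.29 in SUV-OE, and Ly6a had 0 and 0.443 against 1.31 and 0.887. In this list 2 genes had an unadjusted p under 0.05.

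Markers of other blood cells were measured in the same libraries. The summed FPKM of 13 B-lymphoid markers was 22.2 and 31.2 in controls against 50.1 and 121 in SUV-OE, with 11 of 12 tested genes higher and a median log2 fold change of 1.65. Their most abundant gene, Cd79b, had a log2 fold change of -0.06 and was the only tested gene of this list that was lower. The sum of 14 monocyte and macrophage markers was 111 and 113 in controls against 140 and 150.1 in SUV-OE, with 6 of 10 tested genes higher and a median of 0.53, and Adgre1, the most abundant, at 0.47. The sum of 10 mast cell, basophil and eosinophil markers was 82.2 and 164 in controls against 241 and 180 in SUV-OE, with 5 of 7 tested genes higher and a median of 0.72. In these 3 lists 0 genes were DEGs by limma, 18 of 29 tested genes had an unadjusted p under 0.05 and were higher in SUV-OE, 1 had such a p and was lower, and 14 were DEGs by limma-voom. In control replicate 3, 2 of the B-lymphoid markers and 3 of the mast cell, basophil and eosinophil markers were at 0, in control replicate 4 these numbers were 0 and 1, and in SUV-OE 0 of them were at 0.

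The sum of 11 erythroid markers was 42.0 in control replicate 3 and between 139 and 168 in the other 3 libraries, with 10 of 11 higher and a median of 0.79. Car1 and Car2 were DEGs, both higher in SUV-OE. The FPKM of Car1 was 4.57 and 2.28 in controls against 33.4 and 32.0 in SUV-OE, and that of Car2 2.33 and 1.47 against 15.9 and 18.4. Their log2 fold changes were 2.98 (SE 0.27, limma adjusted p = 0.0280) and 2.66 (SE 0.19, limma adjusted p = 0.0214). At an unadjusted p under 0.05, 5 erythroid markers were higher and 0 lower, and by limma-voom 4 were DEGs higher. Hbb-bs had 5.24 and 63.2 in controls against 38.9 and 28.7 in SUV-OE. The T and NK cell markers summed to 2.23 and 3.04 in controls against 2.33 and 3.76 in SUV-OE, with 1 of 2 tested genes higher, a median of 0.02 and a log2 fold change of -0.59 for Lck. Like the 10 late neutrophil genes, the sum of each of the 6 marker lists was lower in control replicate 3 than in control replicate 4, and so was the FPKM total of all genes, at 356552 against 414940. The part of these other cells in the late neutrophil result was not tested.

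**Figure D5:**
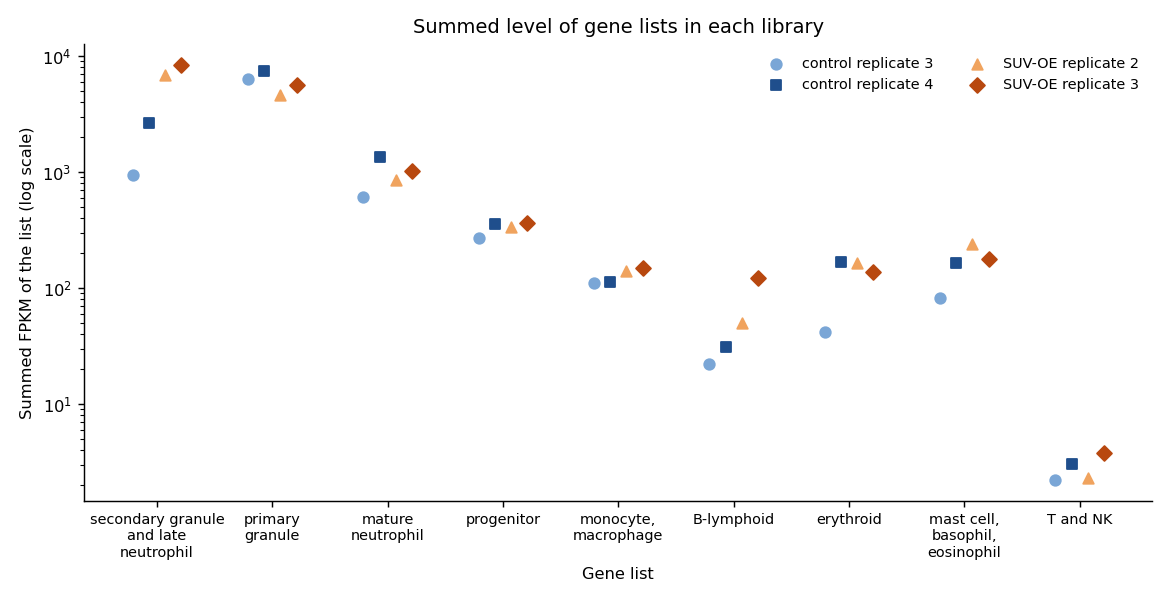
Summed FPKM of 9 gene lists in each library, on a log axis, with 1 point per library. The 10 late neutrophil genes sum to 949.9 and 2637 in controls against 6909 and 8426 in SUV-OE, the primary granule sums lie in the reverse order (6359 and 7486 in controls, 4631 and 5593 with SUV-OE), and the B-lymphoid sum reaches 121 in SUV-OE replicate 3.

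The position of the genes was examined last. Camp, Ngp and Ltf lie within 1.195 Mb of chromosome 9. Within 100 kb of the 10 genes, 27 other tested genes were found, next to 8 of the 10. Their log2 fold changes ran from -0.67 to 1.57 with a median of -0.09. Both SUV-OE libraries were above control in 7 of the 27 (25.4% of all tested genes) and below control in 10 (28.4% of all tested genes). The only DEG among these neighbours was Slc12a5, 4952 bases from Mmp9, named after its values were seen. It had an FPKM of 0.904 and 1.05 in controls against 3.44 and 3.16 in SUV-OE, a log2 fold change of 1.12 (SE 0.14, limma adjusted p = 0.0486). No other gene in the table overlapped any of the 10.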

How the data were processed

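RNA-seq covered c-Kit+ AML cells in 2 control and 2 SUV-OE libraries, grouped by their labels. The file deposited by the authors gives each gene 1 FPKM value in each library. Per the study's methods and the submitters' processing notes, TruSeq libraries were sequenced as paired ends, with CASAVA 1.8 for base calling, alignment to mm10 by TopHat2 and Cufflinks named for the FPKM. The annotation release is not given in the sources used here.

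The log2 of FPKM plus a pseudocount of 1 was compared with limma 3.58.1 in R 4.3.3, with the group as the only term and an intensity trend, over the 13736 genes whose mean FPKM was 0.5 or more. DEGs had a Benjamini-Hochberg adjusted p under 0.05 over all tested genes and a log2 fold change of 1 or more in either direction, the study's thresholds. The study's count test was not run. The main test used the FPKM as deposited, which are no counts, and the recovered reads were left to an alternative. For genes with low FPKM the log2(FPKM + 1) scale makes fold changes smaller. Gene positions and exon lengths came from GENCODE M21. For 78.5% of genes all 4 FPKM were whole multiples of 1 read at the GENCODE exon length, within 0.01 reads, and 4930 further genes, Mmp8 among them, were whole at another length. Cufflinks estimates need not be whole, so the tool behind the deposited FPKM is uncertain. These reads gave depth and a limma-voom alternative (mean of at least 10 reads). Scripts were tested on simulated data.

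The 10 genes and all lists were chosen with earlier results of these data known. Genes named were the 10, Suv39h1, Kit, and of each neutrophil list the 2 most abundant, the 2 with the largest absolute log2 fold change and any DEG. Of each marker list the most abundant gene was named, and of all tested genes the 5 nearest in profile. Of these, 1 gene is not reported here. Cd34, Flt3, Lyz2, Adam8, Mmp25, Cxcr2, Timp2, Car1 and Car2 were named outside this rule, after their values were seen. Alternatives were a pseudocount of 0.1, no filter, a stricter filter (mean FPKM of 1), median-of-ratios scaling, quantile normalization, no trend, a robust trend, limma-voom, other thresholds, and leaving out each library. Figures were drawn with matplotlib 3.10.9.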

Additional observations from a re-analysis of the deposited data

How the results depend on the processing

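The number of DEGs among the 10 genes was 1 in the reported analysis and 0 with a pseudocount of 0.1, 0 with no filter on low values, 2 with quantile normalization (Ltf and Ngp), 3 at an adjusted p under 0.1, 8 with limma-voom on recovered reads, and 0 to 0 when any 1 library was left out, where the lone library of a group was assumed to vary like the others. It was 1 in the other 5 alternatives. The cause was not tested, except that leaving out a library leaves 3 libraries. For the 10 genes together, the median log2 fold change stayed positive in 12 alternatives (1.42 to 2.51). Since the groups were apart in all 10 genes, only the alternatives that rescale the values could have turned a sign. Of 120 values of single genes, 0 changed sign, 6 (all of Ltf) lost the threshold and 8 passed it. Over all genes, DEGs numbered 168 (66.7% higher), 116 with a pseudocount of 0.1, 0 of 23552 with no filter (4177 at an unadjusted p under 0.05), 769 by limma-voom (81.9% higher), and 0 without any 1 library (1166 to 3877 at an unadjusted p under 0.05). Of 13736 tested genes, 163 were DEGs with quantile normalization and 342 at an adjusted p under 0.1. limma-voom placed the median of all genes at 0.08. Medians of lists near 0 moved or changed sign: that of other granule genes was -0.049 without control replicate 3 and 0.57 without control replicate 4, that of mature neutrophil genes -0.017 at a mean FPKM of at least 1, -0.13 without control replicate 3 and 0.47 without control replicate 4, and that of transcription factors 0.25 without control replicate 3, -0.097 without control replicate 4 and -0.0068 without SUV-OE replicate 2. No paired analysis was possible because only 1 replicate number occurs in both groups. Depth limited Ly6g (12 reads in control replicate 3) most.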

Other observations

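The 5 other genes whose profile over the 4 libraries was nearest to the mean profile of the 10 late neutrophil genes were Ifitm3, 2010005H15Rik, Cpa3, 1700080G11Rik and Igkc, among tested genes at a mean FPKM of 5 or more. Likeness was the Euclidean distance between centred log2(FPKM + 1) values, a description with no test. The distances were 0.209, 0.269, 0.283, 0.299 and 0.397, where the 10 genes themselves lay between 0.163 (Lcn2) and 1.61 (Chil3) and the median tested gene at 2.14. Ifitm3, an interferon-induced membrane protein, had an FPKM of 5.76 and 14.9 in controls against 30.8 and 36.0 in SUV-OE. Cpa3, the mast cell carboxypeptidase, had 21.3 and 43.5 in controls against 112 and 103 in SUV-OE. Igkc, the immunoglobulin kappa constant region, had 14.5 and 25.8 in controls against 83.2 and 102.9 in SUV-OE. None of the 5 was a DEG by limma, with adjusted p-values from 0.0559 to 0.134.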
